A study of Zea mays with 6 samples.

Results

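A run of neighbouring maize gene identifiers, from Zm00001d044677 to Zm00001d044899, was followed gene by gene between GARR2 knockout and wild-type leaf sheaths. The run was picked from these same 6 libraries because many of its genes differed 2-fold or more between the genotypes, more of them lower than higher in the knockout. Its members were the identifiers in this range that averaged 1 FPKM or more across all 6 libraries, without genes at 0 in all 3 libraries of a genotype and without 2 identifiers that the rule leaves out by number. This gave 82 members, out of 189 identifiers listed in the range and 44146 in the whole table. FPKM counts fragments per kilobase of gene after scaling for library size. Because the range was picked on the difference between the genotypes, the fold changes and calls below describe the members and test nothing, and no p-values are given for them.

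The libraries came from the sheath of leaf 2 of maize (Zea mays) seedlings with 3 leaves, 3 libraries from the GARR2KO line and 3 from WT plants. No seedling had been treated, and all were grown under normal conditions. GARR2 is a long noncoding RNA, and the labels do not say how it was knocked out, whether GARR2KO is 1 line or several, or how the WT plants are related to it. The labels name no batch within the genotypes, so a batch of growth, harvest or sequencing and the genotype cannot be told apart.

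The leaf sheath is the lower, tubular part of a grass leaf. It wraps the younger leaves and holds up the seedling before the stem elongates. Long noncoding RNAs are transcripts without a long open reading frame, and some of them are known to act on the genes near their own locus while others act elsewhere in the cell. Genes that lie together on a chromosome can share their local chromatin, can be copies of one another, and are inherited together, so a run of neighbours is often read as a unit. Here only the number in the identifier orders the genes: none of the 44146 identifiers matched the gene table at hand, which belongs to another assembly of maize, so the members carry no names, roles, positions or sequences, and whether genes with close numbers lie close together was not tested. For the same reason GARR2 itself was not analysed here, and the sheath could not be checked against marker genes.

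Of the 189 identifiers in the range, 73 were at 0 in all 6 libraries, which is 38.6% of them, against 29.6% of all listed genes. A further 32 were above 0 with a mean under 1 FPKM. The 84 that averaged 1 FPKM or more made up 44.4% of the range, against 48.8% of all listed genes. From these 84 the rule took away 1 gene at 0 in a genotype and 1 of the 2 identifiers left out by number, the other being under 1 FPKM already. The gene at 0 was Zm00001d044730, which had no read in any GARR2KO library, against 5.12, 3.92 and 5.16 FPKM in the WT libraries. Its 334 WT reads made it at least 112-fold lower in GARR2KO against a floor of 3 reads over the genotype. The floor covers counting error only. Just inside the limit of 1 FPKM were Zm00001d044777, with a mean of 1.04 FPKM over the 6 libraries, and Zm00001d044680, with 1.10. Just outside were Zm00001d044723, with 0.906, and Zm00001d044717, with 0.859.

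The fit was made over all 21531 genes of the table that averaged 1 FPKM or more, using limma-trend on log2(FPKM + 1), and a gene was called when its Benjamini-Hochberg adjusted p was under 0.05. Of the 82 members, 49 were called (59.8%), beside 44.2% of all tested genes. Among them 16 were higher in GARR2KO (19.5%, beside 20.1% of all tested genes) and 33 were lower (40.2%, beside 24.1%). Fold changes of 2 or more on this scale were called in 14 members (17.1%, beside 4.01% of all tested genes), 4 higher in GARR2KO (4.88%, beside 2.01% of all tested genes) and 10 lower (12.2%, beside 2.01%). The range was picked for these large changes, so nothing follows from their excess. A level in whole sheaths does not tell fewer cells of a type from less RNA per cell. The median log2 fold change, GARR2KO over WT, was -0.13 over the members and -0.01 over all tested genes.

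**Figure D1:**
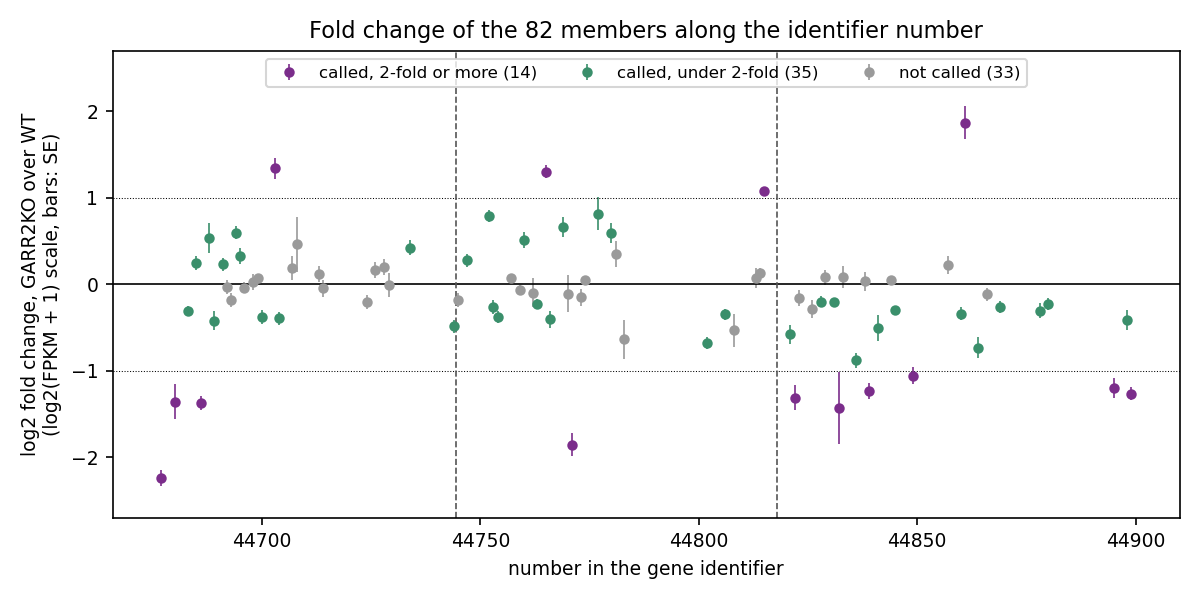
Fold change of each of the 82 members, as log2 of GARR2KO over WT on the log2(FPKM + 1) scale, against the number in its identifier. Bars are the SE, dotted lines mark a 2-fold change, dashed lines part the members by order into 28, 27 and 27, and colours give the 14 members called at 2-fold or more, the 35 called under 2-fold and the 33 not called; the last 27 hold 18 members called lower and 1 called higher.

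The 10 large falls ran from abundant to barely detected transcripts. Among them, Zm00001d044680, Zm00001d044822, Zm00001d044832 and Zm00001d044895 averaged under 1 FPKM in GARR2KO and passed the limit of 1 FPKM through their WT values. The filter thus let them into the count because they were high in WT. No large rise passed in this way, as the large rises averaged at least 3.64 FPKM in WT and 10.7 FPKM in GARR2KO. The most abundant member was Zm00001d044686, a gene of 360 bp by the length recovered from its FPKM values. Zm00001d044686 had 2206, 2498 and 2376 FPKM in the GARR2KO libraries, against 6210, 5602 and 6521 FPKM in the WT libraries. The genotypes stood far apart, with every WT library more than 2-fold above every GARR2KO library. Its mean was 2360 ± 147 FPKM in GARR2KO and 6111 ± 468 FPKM in WT (SD, n = 3 each), a log2 fold change of -1.37 (SE 0.080). In its own library it held 0.357 to 0.402% of all FPKM in GARR2KO and 0.884 to 0.965% in WT.

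At the low end of the range lay Zm00001d044677, whose fold change was the largest of the members on the log2(FPKM + 1) scale. Zm00001d044677 had 18.6, 20.3 and 17.3 FPKM in GARR2KO, against 103, 82.0 and 91.6 FPKM in WT. The highest GARR2KO library was thus far below the lowest WT library, and the means, 18.7 ± 1.5 FPKM in GARR2KO and 92.3 ± 10.7 FPKM in WT, differed 4.93-fold (log2 fold change -2.24, SE 0.089). Its next neighbour among the members, Zm00001d044680, was lower as well and close to the limit of detection. Zm00001d044680 had 0.046, 0.150 and 0.287 FPKM in GARR2KO, from 1, 3 and 6 reads, against 1.72, 1.37 and 3.02 FPKM in WT, from 39, 28 and 58 reads. The genotypes did not overlap, but the WT libraries differed more than 2-fold among themselves. Its ratio of GARR2KO to WT was 0.079, with an exact 95% counting interval of 0.037 to 0.151 from the reads. The log2(FPKM + 1) scale compresses such low values and put its fold change at -1.36 (SE 0.20).

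At the high end of the range lay Zm00001d044899, a short gene of 216 bp. It had 52.2, 54.4 and 60.9 FPKM in GARR2KO, against 136, 125 and 145 FPKM in WT, a log2 fold change of -1.26 (SE 0.074). Both ends of the range are thus members with a large fall, which follows from how the range was drawn. Without these 2 end members, 8 large falls lay inside it.

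A single large fall stood in the middle of the range. Zm00001d044771 had 3.46, 3.99 and 5.61 FPKM in GARR2KO, against 18.3, 16.8 and 19.2 FPKM in WT. All 3 GARR2KO libraries were low, and the log2 fold change was -1.85 (SE 0.134). The members on both sides of it, Zm00001d044770 and Zm00001d044773, were not called. Zm00001d044770 averaged 1.54 FPKM in GARR2KO and 1.71 FPKM in WT, and Zm00001d044773 averaged 4.49 FPKM in GARR2KO and 5.14 FPKM in WT.

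Toward the high end 5 more large falls followed, all in transcripts of low or moderate level. Zm00001d044849 had 6.72, 5.61 and 7.01 FPKM in GARR2KO, against 12.9, 15.2 and 15.3 FPKM in WT (log2 fold change -1.05, SE 0.095). Zm00001d044839 had 1.75, 2.09 and 1.52 FPKM in GARR2KO, against 5.26, 5.59 and 5.79 FPKM in WT (log2 fold change -1.24, SE 0.095). In both, the libraries of a genotype lay close together and the genotypes were well separated. Zm00001d044849 was near the 2-fold limit, and its log2 fold change was -0.97 without GARR2KO replicate 2. Zm00001d044895 had 0.994, 0.933 and 0.648 FPKM in GARR2KO, against 2.89, 3.75 and 3.14 FPKM in WT (log2 fold change -1.20, SE 0.119). Zm00001d044822 had 1.04, 0.876 and 0.589 FPKM in GARR2KO, against 3.80, 2.83 and 4.03 FPKM in WT (log2 fold change -1.31, SE 0.140). The reads behind these low values were 104 in GARR2KO and 390 in WT for Zm00001d044895, and 30 in GARR2KO and 126 in WT for Zm00001d044822. Their ratios of GARR2KO to WT had counting intervals of 0.211 to 0.329 for Zm00001d044895 and 0.153 to 0.353 for Zm00001d044822.

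The fifth of these, Zm00001d044832, rested on 12 reads in all. At so few reads, its length, recovered as 72 bp, and its read numbers can be whole fractions of the true ones. This gene was at 0.687 FPKM in GARR2KO replicate 1 and at 0 in replicates 2 and 3, against 2.00, 5.15 and 0.787 FPKM in WT. The lowest WT library was barely above the highest GARR2KO library, and each of these held a single read. Its counting interval for the ratio of GARR2KO to WT ran from 0.0021 to 0.619. It had the widest spread between replicates of all members, 113% of its mean, and its call was lost without GARR2KO replicate 2 or without GARR2KO replicate 3 (log2 fold change -1.30 in both cases). Without Zm00001d044832, 9 members were lower by 2-fold or more.

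**Figure D2:**
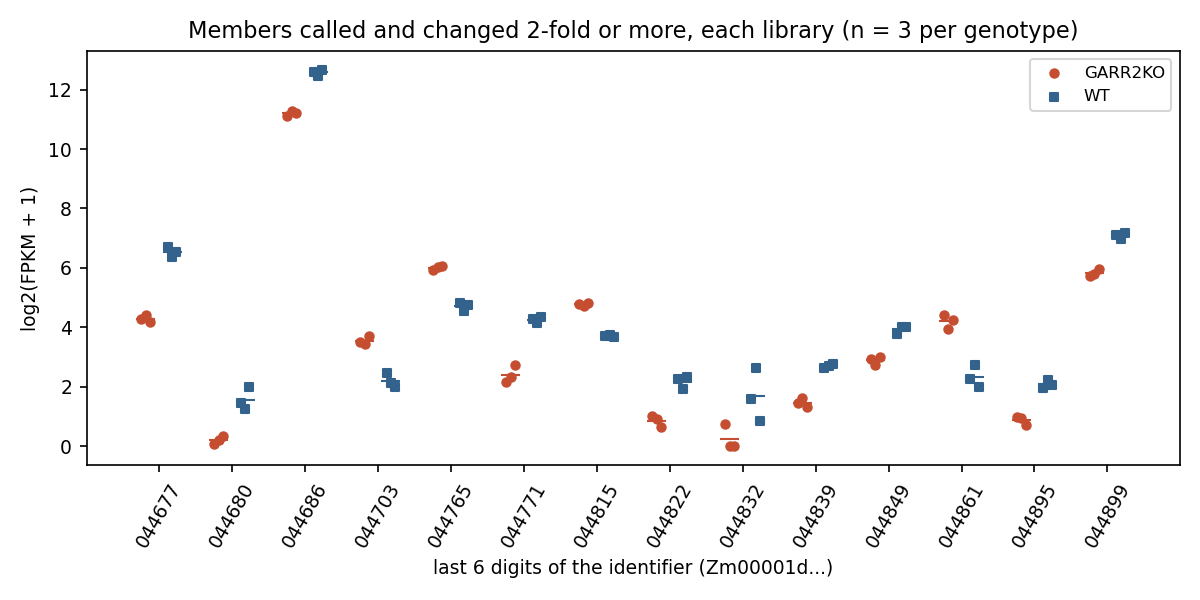
Level of the 14 members called at 2-fold or more, as log2(FPKM + 1), in each of the 3 GARR2KO libraries (circles) and the 3 WT libraries (squares), with a short line at each mean. The GARR2KO values lie below the WT values in 10 members and above them in 4, and only in Zm00001d044832, whose libraries hold 12 reads in all, do the genotypes nearly meet.

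The 4 large rises were spread over the range, each with falling members next to it on at least 1 side. Zm00001d044861 rose most. It had 20.6, 14.3 and 18.2 FPKM in GARR2KO, against 3.84, 5.65 and 3.02 FPKM in WT, a 4.24-fold difference of means (log2 fold change 1.87, SE 0.188). Every GARR2KO library was more than 2-fold above every WT library. The members on both sides of it went the other way, and both were called lower. Zm00001d044860 averaged 4.94 FPKM in GARR2KO and 6.53 FPKM in WT, and Zm00001d044864 averaged 3.86 FPKM in GARR2KO and 7.12 FPKM in WT.

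Zm00001d044703 had 10.3, 9.76 and 12.0 FPKM in GARR2KO, against 4.49, 3.40 and 3.03 FPKM in WT (log2 fold change 1.34, SE 0.123). Zm00001d044765 was more abundant, with 60.4, 65.2 and 65.5 FPKM in GARR2KO, against 27.3, 22.6 and 25.9 FPKM in WT (log2 fold change 1.30, SE 0.073). As around Zm00001d044861, the members on both sides of each of these were called lower. Beside Zm00001d044765, Zm00001d044766 averaged 1.13 FPKM in GARR2KO and 1.82 FPKM in WT. Zm00001d044815 had 26.7, 25.5 and 27.5 FPKM in GARR2KO, against 12.2, 12.3 and 11.7 FPKM in WT (log2 fold change 1.08, SE 0.053). Its replicates were close together, with a spread of 3.85% of its mean.

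The members next to a large change, where called, were mostly lower in GARR2KO, beside falls and beside rises. The 10 large falls had 18 places before or after them in the order of members, of which 10 held a member called lower, 2 a member called higher and 6 a member not called. The 4 large rises had 8 such places, with 7 called lower and 1 not called. Zm00001d044821 and Zm00001d044898 each fill 2 of these places. Zm00001d044677 and Zm00001d044680, both large falls, each fill 1 place beside the other. Over all members 40.2% were called lower and 19.5% higher, beside 24.1% and 20.1% of all tested genes. Of all calls in the whole table, 54.6% were falls. The range was picked on this contrast, so the counts are a description. The 2 neighbours called higher, Zm00001d044685 and Zm00001d044688, both flanked Zm00001d044686. Zm00001d044685, the member just before Zm00001d044686 and the second most abundant, had 1716, 1841 and 1947 FPKM in GARR2KO, against 1546, 1404 and 1686 FPKM in WT. It was higher in GARR2KO, by little, with a mean of 1835 ± 115 FPKM in GARR2KO and 1545 ± 141 FPKM in WT (log2 fold change 0.25, SE 0.081). Its call was lost in 4 of the 6 fits without a library, those without WT replicate 1 or 2 and without GARR2KO replicate 2 or 3, where the log2 fold change ran from 0.18 to 0.25. In the same libraries, then, Zm00001d044686 stood at 0.386 of its WT level and Zm00001d044685 at 1.19 of its own.

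The other 2 of the 5 most abundant members were higher in GARR2KO too. Zm00001d044752 had 169, 167 and 187 FPKM in GARR2KO, against 107, 92.4 and 102 FPKM in WT (log2 fold change 0.79, SE 0.068). Zm00001d044747, a gene of 237 bp, had 326, 353 and 361 FPKM in GARR2KO, against 295, 256 and 308 FPKM in WT (log2 fold change 0.28, SE 0.076). The gap between the genotypes was wide for Zm00001d044752 and narrow for Zm00001d044747, whose call was lost without GARR2KO replicate 2 or 3. In the member with the lowest mean FPKM, Zm00001d044777, 71 reads in GARR2KO stood against 21 in WT, at 0.965, 2.04 and 1.83 FPKM in GARR2KO and 0.687, 0.276 and 0.442 FPKM in WT. Its ratio of means was 3.44, but the log2(FPKM + 1) scale put it at a log2 fold change of 0.82 (SE 0.188), under 2-fold.

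The summed level of the members followed 1 gene. The 82 members summed to 5515, 5960 and 5978 FPKM in the GARR2KO libraries, against 9436, 8570 and 9901 FPKM in the WT libraries. Every GARR2KO sum was below every WT sum, and the members took 0.892 to 0.959% of all FPKM in GARR2KO and 1.35 to 1.47% in WT. Zm00001d044686 alone made up 39.7 to 41.9% of the sum in GARR2KO and 65.4 to 65.9% in WT. Without it, the order turned: the other 81 members summed to 3458 ± 147 FPKM in GARR2KO and 3192 ± 208 FPKM in WT (SD, n = 3 each), and the libraries of the genotypes overlapped, at 3309 to 3602 FPKM in GARR2KO and 2969 to 3380 FPKM in WT. They did not overlap when each library was scaled to the same sum over all genes, at 3424 to 3684 in GARR2KO and 2997 to 3200 in WT. Without the 5 most abundant members the sum was lower in GARR2KO again, at 1046 ± 0.61 FPKM against 1124 ± 29 FPKM in WT. Under the same scaling that last gap narrowed to 1077 ± 5.8 in GARR2KO and 1094 ± 13 in WT, and the libraries then overlapped.

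**Figure D3:**
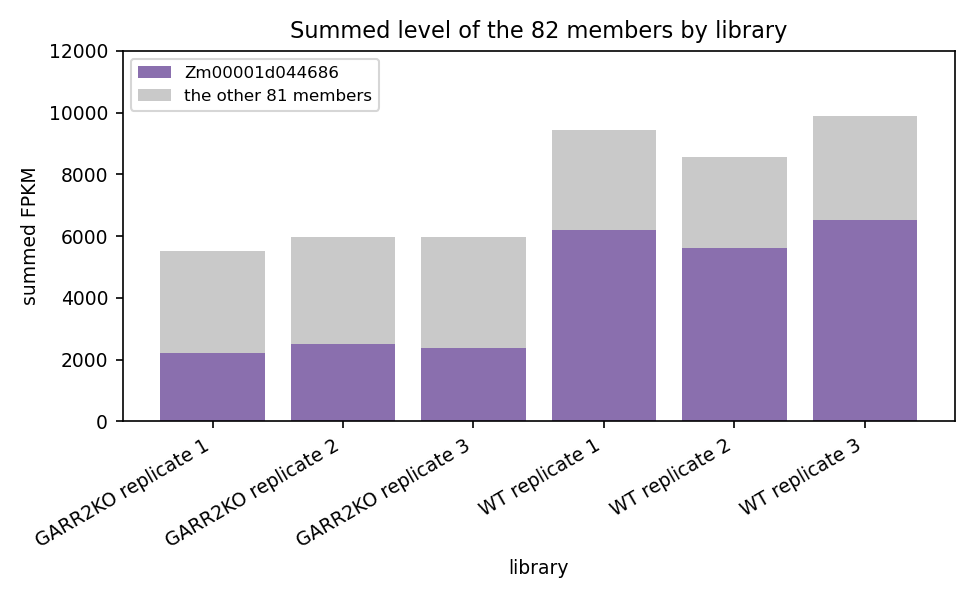
Summed FPKM of the 82 members in each library, GARR2KO replicates 1 to 3 and then WT replicates 1 to 3, with Zm00001d044686 in purple and the other 81 members stacked above it in grey. The purple part is 2206 to 2498 FPKM in GARR2KO and 5602 to 6521 FPKM in WT. The grey part is 3309 to 3602 FPKM in GARR2KO and 2969 to 3380 FPKM in WT, higher on average in GARR2KO.

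Most members changed by little. A total of 35 were called under 2-fold, 12 of them higher in GARR2KO and 23 lower. Calls of any size took 59.8% of the members, beside 44.2% of all tested genes. Calls at 2-fold or more took 17.1% of the members, beside 4.01% of all tested genes. The 12 members called higher under 2-fold had log2 fold changes of 0.23 to 0.82, with a median of 0.52. The 23 called lower had -0.88 to -0.20, with a median of -0.38. In all 35 the values of the genotypes did not overlap, which the call itself makes likely with 3 libraries per genotype. The 33 members that were not called had log2 fold changes of -0.64 to 0.46, and in 25 of them the genotypes overlapped. Over called and uncalled members, the genotypes did not overlap in 57 (69.5%, beside 56.2% of all tested genes). All 3 GARR2KO values lay above the WT values in 19 members (23.2%, beside 26.8% of all tested genes) and below them in 38 (46.3%, beside 29.4%).

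Of the 33 called falls, 18 lay in the last 27 members. In a split by order that was chosen after the values had been seen, the first 28 members, up to Zm00001d044744, had 7 called higher and 8 called lower in GARR2KO. The next 27, up to Zm00001d044815, had 8 higher and 7 lower. Over all tested genes 20.1% were called higher and 24.1% lower. In the last 27, from Zm00001d044821 to Zm00001d044899, 1 was called higher, which is Zm00001d044861, and 18 were called lower, among them 6 of the 10 large falls. The median log2 fold change was 0.01 in the first 28, -0.06 in the next 27 and -0.30 in the last 27. Scaling of the libraries moved the counts of the last 27 without turning them, to 1 higher and 13 lower with equal sums, 1 and 16 after quantile normalization, 1 and 17 with voom on recovered reads and 1 and 18 after median-of-ratios scaling. Fits without any 1 library had 1 called higher and 13 to 17 called lower there. These refits use the same libraries and the same split, so they do not test the pattern.

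The longest stretch of members with the same sign closed the range. The 8 members from Zm00001d044864 to Zm00001d044899 were all lower in GARR2KO, and 7 of them were called, beside 24.1% of all tested genes called lower. The stretch was singled out as the longest of 45 after the values had been seen, so its counts are a description. The range was drawn to end on Zm00001d044899, a large fall, so the last member of this stretch follows from the choice. A log2 fold change below 0 was present in 59.8% of all members, beside 51.1% of all tested genes. Within the stretch Zm00001d044864 and Zm00001d044869 stand for the smaller falls, named after their values had been seen. Zm00001d044864 had 4.31, 3.95 and 3.32 FPKM in GARR2KO, against 6.47, 6.33 and 8.55 FPKM in WT. Zm00001d044869 had 21.6, 22.6 and 19.7 FPKM in GARR2KO, against 26.0, 27.3 and 24.1 FPKM in WT. Both were lower in every GARR2KO library than in any WT library, by different amounts. Over the whole range the signs alternated often, with 45 stretches of 1 sign in 82 members and the same sign in 37 of the 81 pairs of neighbours.

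The range was drawn around large changes and ends on 2 of them, so few large changes just outside it follow from the choice. Among the 100 tested genes with the next lower numbers, 1 was called at 2-fold or more, a fall, and among the 100 with the next higher numbers 2 were, both falls, beside 4.01% of all tested genes. The 100 genes above the range had 12 called higher and 29 called lower, so falls were 70.7% of the calls, against 67.3% of the calls among the members and 58.1% of the calls in the 100 genes below (13 higher and 18 lower), and 54.6% of the calls over all tested genes. The 29 called lower above the range are nearer to the 24.1% of all tested genes called lower than to the 40.2% of the members. In both flanks the balance depended on the scaling, with 18 higher and 22 lower above the range and 23 higher and 16 lower below it when libraries were scaled to equal sums. Under the same rule, 3 other runs of identifiers dense in large changes had a smaller share of large falls. It was 7.98% of 238 genes in the run from 8874 to 9566, 7.59% of 158 in that from 19399 to 19957 and 9.52% of 105 in that from 20340 to 20588, against 12.2% here. The run from 20340 to 20588 had 10 large falls, as many as here. The 10 here include the 2 end members and Zm00001d044832, which held few reads. All 4 runs were picked on the same contrast, so their shares are set side by side and not tested.

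Gene length did not enter the choice of the range directly. The large changes that the range was picked for leaned to short genes in the whole table, as given below. Lengths were recovered from the FPKM values, where 1 read is worth less in a longer gene. The 82 members had a median length of 1371 bp, with quartiles of 877 and 2252 bp, against a median of 1793 bp over all tested genes. Within the range, the 14 members changed 2-fold or more had a median of 865 bp and the other 68 a median of 1524 bp. The same lean was present in the whole table, where genes called at 2-fold or more had a median of 1146 bp. Of the 14, only Zm00001d044895, at 2089 bp, was longer than the median gene. Shorter genes give fewer reads at the same FPKM, and the part of length in these changes was not tested.

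**Figure D4:**
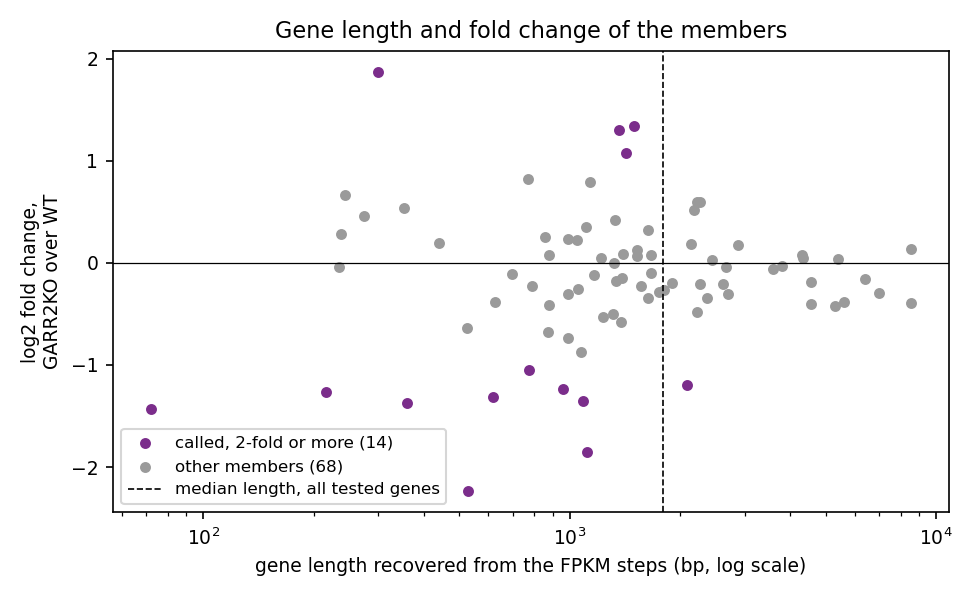
Length of each member in bp, on a log axis, against its log2 fold change, GARR2KO over WT, on the log2(FPKM + 1) scale. Purple points are the 14 members called at 2-fold or more, grey points the other 68, and the dashed line is the median length of all tested genes, 1793 bp; 1 purple point, Zm00001d044895, lies to the right of it.

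In level the members were ordinary, with a median of 10.1 FPKM and quartiles of 3.30 and 19.8 FPKM, against 8.75 FPKM and quartiles of 3.74 and 21.3 FPKM over all tested genes. Their replicates lay somewhat further apart: the SD within a genotype had a median of 9.19% of a gene's mean, against 7.51% over all tested genes. Reads per member over the 6 libraries ran from 12 to 175209, with a median of 1456, against a median of 2202 over all tested genes. The order of the WT libraries was similar in the members and elsewhere, except that replicate 3 was more often on top. WT replicate 2 was the lowest WT library in 39.0% of the members and in 38.7% of all tested genes, and WT replicate 3 was the highest in 43.9% of the members and in 34.6% of all tested genes. Fits without any 1 library had 12 to 15 members called higher, 27 to 34 called lower, 4 or 5 higher by 2-fold or more and 8 to 10 lower by 2-fold or more.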

How the data were processed

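RNA was sequenced from 6 leaf sheath libraries, 3 GARR2KO and 3 WT, grouped by the genotype in the labels; the replicates are biological per the series' design text. The authors deposited 1 headerless table per library. Its values were taken as FPKM, since the submitters' processing notes name Cufflinks and Cuffdiff, besides TopHat2 and the build B73 RefGen_v4, all without versions. RPKM would look the same. The sources used here do not give the annotation or any filter. Sums of FPKM ran from 618107 to 675513.

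Low FPKM values were whole multiples of 1 step per gene and library. Taking them as reads at a whole gene length, within 0.002 of a whole number, gave reads for 31076 of 31076 genes above 0, which genes seen in few libraries pass easily. The recovered reads summed to between 17723593 and 19182367 in GARR2KO libraries and between 17750597 and 20722158 in WT libraries. In WT replicate 3 this sum, 17750597, exceeded the recovered library total of 17656864, while in every other library it lay below the total. The reason was not tested, and the totals scale the counting intervals. The recovered reads may be reads or read pairs, and in rare genes a length or read number can be a whole fraction of the true one. Intervals and floors (3 reads per genotype, exact intervals at 95%) cover counting error only.

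Limma-trend (limma 3.58.1, R 4.3.3) was fitted to log2(FPKM + 1), a pseudocount of 1, with genotype alone in the model, over 21531 genes, with a two-sided adjusted p under 0.05. SE are limma's. The fit and the recovery of reads were tested on simulated data with 200 genes changed. Reads were exact in 99.27% of 3000 genes tried. The fit called 2.08% of the genes changed 1.25-fold, 48% of those changed 1.5-fold and 94% of those changed 2-fold. These shares need not hold for the real libraries, where 44.2% of tested genes were called.

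The members, gene lists and tests were chosen with earlier results of these data known. Named genes are the members called at 2-fold or more, the 5 highest means, the 2 nearest to 1 FPKM on each side and the 2 with the highest spread between replicates; neighbours and others were named after their values had been seen. A part of the rule for members with a gene name applied to none, since 0 identifiers matched the gene table (Zm-B73-REFERENCE-NAM-5.0). Alternatives covered the pseudocount, filter, scaling, voom on recovered reads, moderation, replicate block and each library left out.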

Additional observations from a re-analysis of the deposited data

How the results depend on the processing

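The counts of members called, in either direction and at 2-fold or more, and their median log2 fold change kept their direction under all the alternatives run, and the counts stayed within 1.5 times the reported ones with 1 exception. With a minimum mean of 5 FPKM, 49 of the 82 members remained to be tested and 5 were lower by 2-fold or more, in place of 10. The large rises stayed at 4, so only falls of low level were lost and the lean to large falls was nearly gone. Of all genes tested at that minimum, 1.95% were lower and 1.66% higher by 2-fold or more. The members numbered 49 at that minimum and 90 at a minimum of 0.5 FPKM. Over all settings that keep the 6 libraries, that minimum included, there were 12 to 18 members called higher, 23 to 34 called lower and 4 to 6 higher by 2-fold or more, and the median log2 fold change was -0.18 to -0.07, the last with libraries scaled to equal sums, where the median of all tested genes was 0.06. Leaving out each library in turn gave a median of -0.18 to -0.12. The 14 members called at 2-fold or more kept direction and call in 203 of 205 refits, and both losses were Zm00001d044832. The 2-fold limit itself was not always kept. Zm00001d044849 fell short of it with equal sums (log2 fold change -0.98) and without GARR2KO replicate 2 (-0.97). Zm00001d044832 fell short of it without WT replicate 2 (-0.96). Leaving out members of under 20 reads, an alternative chosen after seeing the data, removed Zm00001d044832 alone from the large falls. Of the 264 refits of the 18 named members, 9 lost a call, the other 7 being Zm00001d044685 (5, with no filter among them) and Zm00001d044747 (2). Replicate numbers did not pair the libraries: their deviations from the genotype means correlated at -0.051, -0.046 and 0.049 for replicates 1, 2 and 3. With the replicate block, 16 members were called higher and 34 lower, of which 4 and 10 by 2-fold or more. Depth limits the low members, since a single read in a 2 kb gene stood for 0.0240 to 0.0283 FPKM, and for more in shorter genes.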
